A study of Mus musculus with 12 samples.

Results

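The acyl-CoA synthetases (genes named Acsl, Acsm, Acss, Acsf or Acsbg followed by a number) and the acyl-CoA thioesterases (Acot followed by a number) were examined. The tissue was epididymal white adipose tissue (eWAT), the fat pad beside the epididymis. The name rule found 26 genes of the 22015 in the table, 15 synthetases and 11 thioesterases. No gene was listed under an Acsf name. Fatty acids are inert in metabolism until a synthetase joins them to coenzyme A, and the resulting acyl-CoA can be esterified into triglyceride, oxidised or used in other lipids. Thioesterases run the opposite reaction and release the free fatty acid and coenzyme A. In white fat both reactions take place around the lipid droplet, in the cytosol, in mitochondria and in peroxisomes, and the subfamilies differ in the chain length they prefer and in the compartment they occupy.

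RNA-Seq libraries came from the whole eWAT of 12 male C57BL/6J mice, 3 in each of 4 groups. The ND group ate a normal diet, the HFD group a high-fat diet, the CLE group the same high-fat diet with 1.5% by weight of an ethanol extract of chrysanthemum leaf, and the LU group the high-fat diet with 0.003% by weight of the flavonoid luteolin. All mice were 21 weeks old after 16 weeks of feeding and carried no engineered allele, and the CLE and LU groups thus share the high-fat diet with the HFD group. The comparisons ask how the diet moves these genes and how the extract and luteolin move them on that diet. The 3 animals of each group had been picked as representative from a larger group.

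Levels are in FPKM, fragments scaled to transcript length and to the mapped fragments of the library, a unit in which levels of different genes can be compared. Differences are on the log2(FPKM + 1) scale, where members near 1 FPKM show less change than their ratio of means. A gene was called when its Benjamini-Hochberg adjusted p in limma, fitted across all 12237 genes with at least 1 FPKM in at least 3 libraries, was under 0.05 and its fold change was over 1.5. Read counts were not analysed here, and the sequencing depth of each library is therefore unknown. Between mice of the same group, Pearson's r across the tested genes was 0.98 to 0.992. A letter R stands in the labels of CLE mouse 4, LU mouse 2 and the ND mice 3 and 4, and in none of the HFD labels. The meaning of the letter is not given, so for HFD no value within libraries with the letter can be had.

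Markers of several cell types moved with the groups. Among all tested genes, 15.1% were called higher and 10.6% lower in HFD against ND. The shares were 6.28% and 10.4% in CLE against HFD, and 4.67% and 7.75% in LU against HFD. Of the 8 macrophage markers, 7 were found by name, and all 7 were higher in HFD than in ND and lower in CLE and in LU than in HFD. Their summed level was 317 to 487 FPKM in ND, 2302 to 2647 in HFD, 571 to 873 in CLE and 926 to 1058 in LU. The adipocyte markers Adipoq, Plin1, Cidec and Fabp4 were called lower in HFD than in ND while Lep, which encodes leptin, was called higher, and the summed level of the 6 adipocyte markers was 25303 to 26840 FPKM in ND, 15209 to 17132 in HFD, 22535 to 24177 in CLE and 21077 to 26104 in LU. All 5 mesothelial markers, of the layer that covers the fat pad, were called lower in HFD than in ND. This was the direction of Acsm3, Acot4 and Acot2, and also of 4 of the 6 adipocyte markers. In CLE and in LU against HFD, 1 mesothelial marker was called higher and 0 lower. Of the adipocyte markers, 4 were called higher and 1 lower in CLE, and 2 higher and 1 lower in LU. The mesothelial markers summed to 9.43 to 53.3 FPKM in ND, 2.29 to 7.01 in HFD, 6.90 to 11.9 in CLE and 7.48 to 15.6 in LU. Of 4 endothelial markers, 0 were called in HFD against ND, and 2 were higher in CLE and 3 in LU than in HFD. Of 4 progenitor or fibroblast markers, 0 were called in any of these comparisons. Adipocyte markers were abundant in all libraries. Of 4 brown or beige adipocyte markers, Ucp1, the defining gene of brown fat, did not exceed 0.46 FPKM. The 4 together summed to 26.5 to 38.9 FPKM in ND, 25.3 to 30.1 in HFD, 26.6 to 33.8 in CLE and 26.4 to 41.2 in LU. Of the 3 tested, 1 was called lower in HFD than in ND, and 0 were called in CLE or LU against HFD. In whole tissue, fewer cells of a type and less RNA per cell cannot be told apart, and the part of cell composition in the results below was not tested.

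The type I thioesterases form a cluster of related genes on chromosome 12, and how far their reads can be told apart bears on the values given for Acot2 and Acot4. Acot1 and Acot2 are near copies, and Acot4 is more distant from both. Acot2 encodes the mitochondrial enzyme, Acot1 the cytosolic one and Acot4 a peroxisomal one. The following stretch of 90 coding bases, at coding positions 680 to 769 of Acot2 and 557 to 646 of Acot1 and Acot4 (GENCODE M21, GRCm38, plus strand), shows it. Capitals mark bases that differ from Acot2.
Acot2: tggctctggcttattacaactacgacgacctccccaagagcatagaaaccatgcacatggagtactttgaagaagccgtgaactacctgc
Acot1: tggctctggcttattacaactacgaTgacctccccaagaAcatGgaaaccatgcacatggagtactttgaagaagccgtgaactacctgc
Acot4: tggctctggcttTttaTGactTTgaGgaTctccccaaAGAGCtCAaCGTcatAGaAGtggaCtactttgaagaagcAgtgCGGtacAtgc
Acot1 differs from Acot2 at 3 of these 90 positions and Acot4 at 27. Over the whole coding sequence, Acot1 and Acot2 are 95.3% identical and Acot2 and Acot4 76.4%. The deposited table lists no Acot1 and no Acot5, and places 1 transcript of Acot1 and 2 of Acot5 under the name Acot2. They make 7.23% and 0.49% of the Acot2 sum, which therefore stands for Acot2 with its neighbours. The reads of Acot9 and its intronless copy Acot10, 97.2% identical, are as hard to separate.

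The promoters of the genes with the largest changes and of the most abundant member are shown because several regulators known to act on this family bind short motifs. The windows run from 250 bases before to 50 bases after the start in RefSeq (GRCm38.p6) and are written on the strand of the gene. Capitals mark CCAAT, the E-box CACGTG, the nuclear receptor motif AGGTCA, the sterol regulatory element TCACNCCAC and the GC box GGGCGG, each on either strand.
Acsm3, chr7:119760673-119760972, plus strand: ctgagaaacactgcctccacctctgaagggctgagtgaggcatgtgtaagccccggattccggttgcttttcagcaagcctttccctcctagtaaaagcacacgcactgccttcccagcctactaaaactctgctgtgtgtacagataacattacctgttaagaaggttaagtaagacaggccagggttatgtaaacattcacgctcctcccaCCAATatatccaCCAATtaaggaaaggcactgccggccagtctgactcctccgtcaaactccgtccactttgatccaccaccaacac
Acot4, chr12:84038129-84038428, plus strand: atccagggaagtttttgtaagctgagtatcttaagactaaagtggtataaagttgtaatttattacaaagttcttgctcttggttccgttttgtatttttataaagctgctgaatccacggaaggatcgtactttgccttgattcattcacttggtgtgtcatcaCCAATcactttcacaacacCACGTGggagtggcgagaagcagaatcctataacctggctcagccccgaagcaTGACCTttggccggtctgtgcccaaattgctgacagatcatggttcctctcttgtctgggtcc
Acsl1, upstream start, chr8:46470787-46471086, plus strand: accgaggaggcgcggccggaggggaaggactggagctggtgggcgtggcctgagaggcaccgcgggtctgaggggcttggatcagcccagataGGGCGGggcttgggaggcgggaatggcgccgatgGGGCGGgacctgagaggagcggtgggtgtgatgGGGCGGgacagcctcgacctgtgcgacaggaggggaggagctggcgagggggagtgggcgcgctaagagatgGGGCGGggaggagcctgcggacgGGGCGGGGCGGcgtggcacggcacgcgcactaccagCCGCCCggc
Acsl1, downstream start, chr8:46490716-46491015, plus strand: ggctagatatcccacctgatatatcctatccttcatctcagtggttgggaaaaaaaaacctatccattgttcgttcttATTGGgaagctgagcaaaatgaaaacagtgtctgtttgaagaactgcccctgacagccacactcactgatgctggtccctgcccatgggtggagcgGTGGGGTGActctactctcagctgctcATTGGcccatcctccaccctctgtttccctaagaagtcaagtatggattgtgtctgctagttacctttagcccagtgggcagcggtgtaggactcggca
Acsm3 holds CCAAT at -37 and -25 relative to its start. Acot4 holds CCAAT at -85, the E-box at -66 and AGGTCA, read on the other strand, at -13. The upstream Acsl1 promoter holds 7 GC boxes, of which those at 5 and 10 overlap by 1 base, and the downstream one holds none but carries a sterol regulatory element at -76. RefSeq gives 28 promoters for 22 of the 26 members. AGGTCA is in 6 of the 28 (16.26% of all 32851 promoters hold it), the E-box in 3 (7.15%), the sterol element in 1 (1.24%), CCAAT in 17 (37.41%) and the GC box in 13 (35.66%). The direct repeat of AGGTCA with 1 base between, the element of the fatty acid receptors of the PPAR family, is in 0 of the 28 and in 0.04% of all promoters. A match is a match of letters only.

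Of the 26 members, 18 passed the filter on low values and 8 did not. The 8 are Acsl6, Acsbg2, Acsm1, Acsm2, Acsm4, Acot3, Acot10 and Acot12. Acsm4 and Acot10 were listed at 0 in all 12 libraries, and Acot3 reached 1.29 FPKM in ND mouse 2 but stayed at or below 0.42 FPKM elsewhere. Acot12, Acsl6, Acsm1, Acsm2 and Acsbg2 stayed at or below 0.51, 0.086, 0.070, 0.018 and 0.031 FPKM. Since reads of Acot10 may have been assigned to its copy Acot9, the 0 listed for Acot10 says little about its level. Acot11 passed only because of the 3 HFD libraries and LU mouse 2, the only ones at or above 1 FPKM, so that its difference was in part a condition of its being tested.

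In HFD compared with ND, 3 of the 18 tested members were upregulated (Acsl5, Acss1 and Acot11) and 5 were downregulated (Acsm3, Acsm5, Acss3, Acot2 and Acot4). Among all tested genes, 15.1% were called higher in HFD and 10.6% lower. The call of Acot11 was in part a condition of its being tested, as stated above, and is no support for a difference. The same holds for its calls in CLE and LU below. The median difference of the 18 was -0.37, against -0.02 over all tested genes. In CLE compared with HFD, 4 were upregulated (Acsm3, Acss3, Acot2 and Acot4), where 6.28% of all tested genes were called higher, and 1 was downregulated (Acot11), where 10.4% were called lower. In LU compared with HFD, 2 were upregulated (Acsm3 and Acot4) with a background of 4.67%, and 2 were downregulated (Acss1 and Acot11) with a background of 7.75%. The medians of the 18 were 0.12 in CLE against HFD and 0.14 in LU against HFD, beside 0.00 and 0.03 over all tested genes. The comparisons share the HFD libraries, and a chance value in HFD moves the comparison with ND and the other 2 in opposite directions. Leaving out the 4 libraries with the letter R keeps only ND mouse 2, CLE mice 2 and 11 and LU mice 3 and 8 beside the HFD mice. ND mouse 2 was the highest ND mouse for Acsm3, Acsm5, Acot2 and Acot4. Comparisons with ND then rest on that single mouse, and no count is given for them. Without these libraries, 4 members were higher and 1 lower in CLE against HFD, and 1 higher and 2 lower in LU against HFD.

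**Figure D1:**
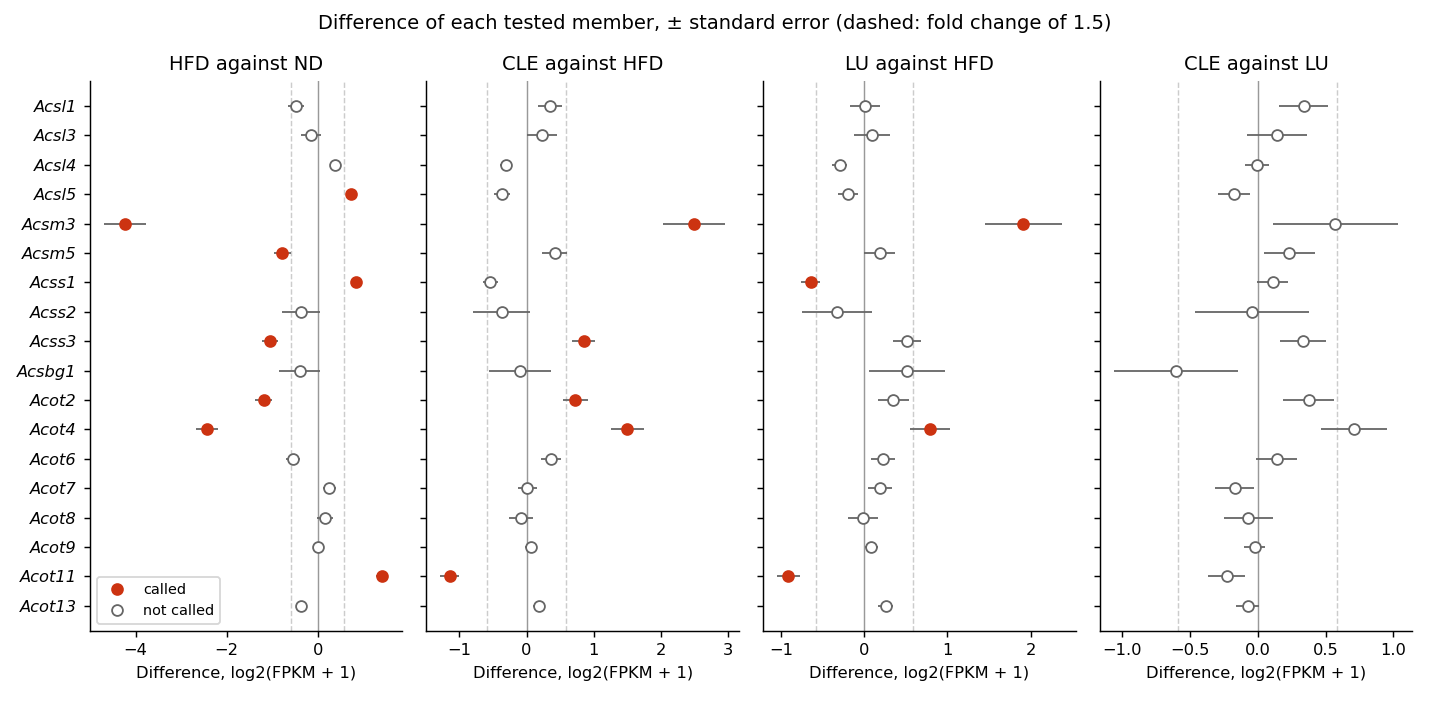
Difference of each of the 18 tested members on the log2(FPKM + 1) scale (horizontal axis, a separate range in each panel) with its standard error, in 4 comparisons of 3 mice with 3 mice. Filled points are called members and dashed lines a fold change of 1.5. Acsm3 lies farthest from 0 in HFD against ND, at -4.24, and no point is filled in CLE against LU.

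The subfamilies differed in level and in how they varied by diet. The long-chain Acsl genes summed to 629 ± 86.5 FPKM in ND, 484 ± 96.8 in HFD, 587 ± 70.9 in CLE and 476 ± 59.1 in LU (mean ± SD, n = 3), and Acsl1 made 90.8% of it. The short-chain Acss genes summed to 186 ± 61.1, 112 ± 17.8, 136 ± 22.3 and 116 ± 4.4 FPKM in the same order. For the Acsl genes the HFD range overlapped that of every other group, and for the Acss genes the ND mice lay above the HFD mice and overlapped CLE. The medium-chain Acsm genes summed to 50.004 ± 23.1 FPKM in ND and 5.65 ± 0.33 in HFD, with 18.9 ± 8.9 in CLE and 12.6 ± 2.7 in LU, so that every ND mouse lay above every mouse on the high-fat diet and every HFD mouse below all others. The type I thioesterases (Acot1 to Acot6) had their means in the same order, with 38.5 ± 14.4, 12.1 ± 0.97, 23.9 ± 3.6 and 17.1 ± 2.3 FPKM, and no group overlapped another. The type II thioesterases (Acot7 to Acot13), a structurally unrelated fold, stood at 82.8 ± 4.4, 83.0 ± 4.5, 84.8 ± 7.2 and 90.2 ± 2.6 FPKM, and all 4 groups overlapped. These sums are descriptions without a test. All 26 members together took 0.130% to 0.248% of the FPKM summed over the 22015 named genes in each library.

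**Figure D2:**
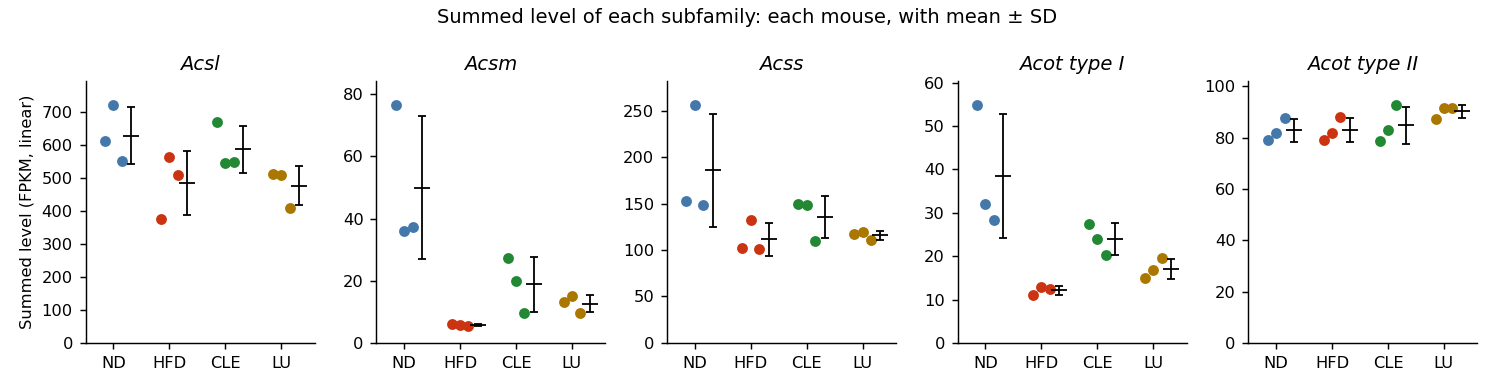
Summed FPKM (vertical axis, linear from 0) of the members of 5 subfamilies in each of the 12 mice, with mean and SD of the 3 mice per group. Acsm and type I Acot are low in all 3 HFD mice, between 5.30 and 5.96 FPKM for Acsm, whereas type II Acot lies between 78.8 and 92.8 FPKM in all groups.

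Acsm3 encodes a medium-chain acyl-CoA synthetase of the mitochondrial matrix and lies on chromosome 7 at 119760923 to 119787513 (GRCm38), where Eri2 overlaps it on the opposite strand. The library kit does not mark strand, so reads of the 2 genes cannot be told apart where they overlap. Its level was 65.2, 29.9 and 28.4 FPKM in ND mice 2, 3 and 4, and 1.29, 0.95 and 1.00 FPKM in HFD mice 12, 15 and 18. In the CLE mice 2, 4 and 11 it was 20.2, 12.5 and 4.48 FPKM, and in the LU mice 2, 3 and 8 it was 7.42, 10.5 and 3.91 FPKM. The HFD mice were below every other mouse and the ND mice above every other mouse, and CLE and LU lay between and overlapped. The ratio of the ND to the HFD mean was 38.1. On the log2 scale the difference was -4.24 ± 0.46 in HFD against ND (standard error, adjusted p = 2.08e-05), 2.48 in CLE against HFD (adjusted p = 0.00173) and 1.91 in LU against HFD (adjusted p = 0.0106). Without the 4 libraries with the letter R, the last of these had an adjusted p of 0.054.

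The Acsm genes are best known from liver and kidney, so genes of those organs were set beside Acsm3. The 7 liver genes summed to 15.9 to 35.3 FPKM in ND, 2.63 to 11.9 in HFD, 8.39 to 29.6 in CLE and 5.61 to 7.66 in LU, and Alb and Serpina1a were called lower in HFD against ND, and Alb higher in CLE against HFD. Of the 7, Fgb and Cyp2c29 stayed under 1 FPKM in all libraries. The direction in HFD against ND was that of Acsm3, and the sums in HFD and LU overlapped. All 4 kidney genes stayed under 1 FPKM, and so did Acsm1 and Acsm2. The part of liver RNA in the Acsm3 values was not tested.

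Acsm5 lies on chromosome 7 at 119519463 to 119545551, with Acsm2, Acsm1 and Acsm4 between it and Acsm3. In HFD against ND it moved in the direction of Acsm3 by less. It stood at 11.4, 6.06 and 9.02 FPKM in ND, 4.66, 4.73 and 4.30 in HFD, 7.09, 7.32 and 5.08 in CLE and 5.83, 4.46 and 5.77 in LU. All ND mice exceeded all HFD mice, and the LU mice overlapped the HFD mice. The difference was -0.78 ± 0.19 in HFD against ND (adjusted p = 0.00452), and neither CLE (0.42, adjusted p = 0.106) nor LU (adjusted p = 0.494) was called against HFD. Pdilt overlaps Acsm5 on the opposite strand.

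**Figure D3:**
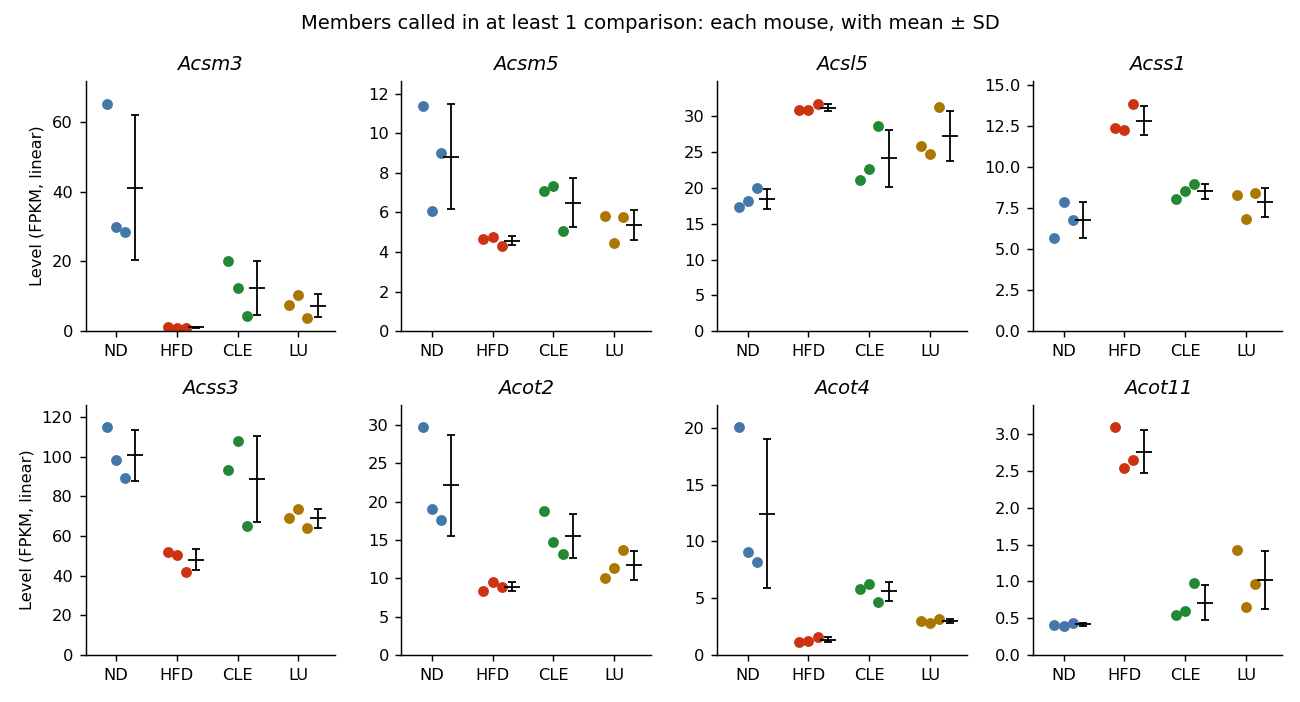
FPKM (vertical axes, linear from 0, a separate range in each panel) of the 8 members called in at least 1 comparison, in each of the 12 mice, with mean and SD of the 3 mice per group. Acsm3, Acot4, Acot2 and Acss3 are lowest in HFD, and Acot11, Acss1 and Acsl5 have their highest mean in HFD, with Acot11 between 2.54 and 3.09 FPKM there and at most 1.43 FPKM in the other mice.

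Acsl1, the main long-chain synthetase of fat cells, was the most abundant member and ranked 81 of the 12237 tested genes by mean FPKM. It lies on chromosome 8 at 46471037 to 46536051. Its level was 567, 683 and 510 FPKM in ND, 320, 508 and 452 in HFD, 624, 491 and 498 in CLE and 464, 458 and 354 in LU. The ND and HFD mice barely separated, at 510 against 508 FPKM for the nearest pair. The difference of -0.47 ± 0.18 in HFD against ND had an adjusted p of 0.046 but stayed under the fold change of 1.5, and CLE against HFD gave 0.35 with an adjusted p of 0.157. Without the libraries with the letter R, which leaves ND mouse 2 alone in its group, the difference in HFD against ND was -0.44. Without HFD mouse 15 that difference was -0.61 and passed both thresholds (adjusted p = 0.0233).

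The table separates Acsl1 transcripts by the start sites whose promoters are printed above. Transcripts within 100 bases of the upstream start made 82.4% to 93.5% of the gene in each library. Those at the downstream start summed to 22.5, 3.27 and 5.75 FPKM in ND, 28.0, 24.8 and 32.8 in HFD, 20.1, 3.34 and 12.8 in CLE and 8.49, 2.15 and 16.5 in LU. All 3 HFD mice were above the other 9 mice, and the 4 libraries with the letter R and LU mouse 3 were the lowest. Thus the transcripts at the downstream start did not follow the total, which had its lowest single value in an HFD mouse. The division of reads among transcripts of a gene is an estimate, the pattern was noticed after the values were seen, and no test was made of it.

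**Figure D4:**
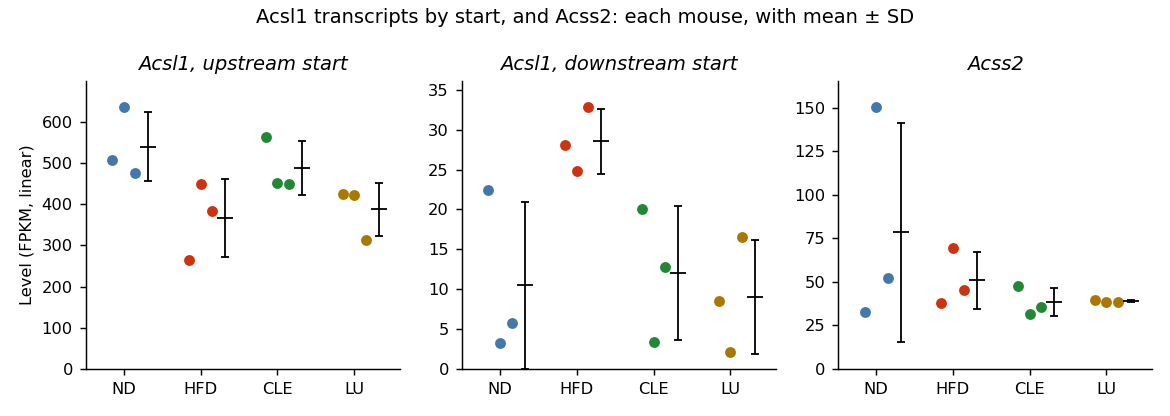
FPKM (vertical axes, linear from 0, a separate range in each panel) of Acsl1 transcripts at the upstream and at the downstream start and of Acss2, in each of the 12 mice, with mean and SD of the 3 mice per group. The HFD mice are the highest for the downstream start, at 24.8 to 32.8 FPKM, and 1 ND mouse stands at 150 FPKM for Acss2.

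Acsl5, a synthetase of mitochondria and the endoplasmic reticulum, went the other way. It lies on chromosome 19 at 55251938 to 55297720 and overlaps Zdhhc6 on the opposite strand. It stood at 17.3, 18.1 and 19.9 FPKM in ND and at 30.9, 30.8 and 31.7 in HFD, with 21.1, 22.7 and 28.6 in CLE and 25.9, 24.7 and 31.2 in LU. Every HFD mouse exceeded every ND and CLE mouse, while LU mouse 8 reached the HFD range. The difference was 0.73 ± 0.12 in HFD against ND (adjusted p = 3.95e-04). CLE was lower than HFD by an adjusted p of 0.0331 but with a difference of only -0.37, and LU was not (adjusted p = 0.256).

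Acsl4, which prefers arachidonic acid, showed a small shift of the same kind. It measured 13.3, 10.9 and 10.5 FPKM in ND, 15.2, 14.8 and 15.6 in HFD, 12.1, 12.3 and 11.8 in CLE and 11.8, 12.5 and 12.2 in LU, so the HFD mice were above all others. The differences of 0.37, -0.31 and -0.30 (HFD against ND, CLE against HFD and LU against HFD) had adjusted p values of 0.00441, 0.0187 and 0.0259 and none reached the fold change of 1.5. Acsl3, a synthetase of the endoplasmic reticulum and of lipid droplets, measured 15.4, 10.4 and 10.8 FPKM in ND, 10.4, 10.95 and 10.6 in HFD, 12.1, 19.3 and 8.68 in CLE and 11.1, 12.5 and 10.7 in LU, with all groups overlapping. Of its sum, 10.4% came from 3 transcripts of Utp14b, which overlaps it.

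The 3 short-chain synthetases moved in 3 ways. Acss3, a mitochondrial enzyme with a preference for propionate, lies on chromosome 10 at 106933517 to 107123668 and was the second most abundant member. It stood at 115, 98.1 and 89.3 FPKM in ND, 51.6, 50.6 and 41.9 in HFD, 93.4, 108 and 65.1 in CLE and 68.9, 73.8 and 63.8 in LU. The HFD mice were below all others, and the LU mice were between the HFD and ND mice. The difference was -1.05 ± 0.17 in HFD against ND (adjusted p = 3.12e-04) and 0.85 in CLE against HFD (adjusted p = 0.00243). LU exceeded HFD by 0.51 with an adjusted p of 0.0398, short of the fold change of 1.5. Its most abundant transcript alone gave 0.56 in CLE against HFD, which is also short of it.

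Acss1, the mitochondrial enzyme that makes acetyl-CoA from acetate, lies on chromosome 2 at 150618105 to 150668500. It stood at 5.68, 7.88 and 6.78 FPKM in ND, 12.4, 12.2 and 13.9 in HFD, 8.09, 8.53 and 8.998 in CLE and 8.32, 6.86 and 8.40 in LU. All 3 HFD mice were above the other 9. The difference was 0.84 ± 0.11 in HFD against ND (adjusted p = 9.57e-05) and -0.65 in LU against HFD (adjusted p = 0.00186). CLE was lower than HFD by 0.54 on the log2 scale with an adjusted p of 0.00367, just under the fold change of 1.5. The call in LU rested on LU mouse 3, without which the difference was -0.56, and the exact permutation test gave its smallest possible two-sided p of 0.1 for 3 against 3.

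Acss2, the enzyme that does the same in the cytosol and nucleus and is a target of the sterol-regulated factors, had 32.9, 150 and 52.1 FPKM in ND, 37.9, 69.4 and 45.3 in HFD, 47.6, 31.7 and 35.9 in CLE and 39.9, 38.7 and 38.6 in LU. The groups overlapped, and ND mouse 3 stood apart. In the same mouse Fasn, the fatty acid synthase, was at 913 FPKM, Acly, which makes cytosolic acetyl-CoA from citrate, at 148, and Acaca, which makes malonyl-CoA, at 214, each the highest of the 12 libraries. HFD differed from ND by -0.37 (adjusted p = 0.491), and by 0.25 without ND mouse 3. Acsbg1, the only very-long-chain member tested, ranged from 0.35 to 4.80 FPKM with a median of 0.85, and LU mouse 8 held the highest value.

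Among type I thioesterases, Acot4, a peroxisomal enzyme, changed most. It lies on chromosome 12 at 84038379 to 84048601, within the cluster whose sequences are compared above, and 2 other annotated genes overlap it. Its level was 20.0, 9.11 and 8.19 FPKM in ND, 1.15, 1.26 and 1.56 in HFD, 5.78, 6.29 and 4.70 in CLE and 3.003, 2.83 and 3.19 in LU. None of the 4 groups overlapped another, in the order ND, CLE, LU and HFD. The ratio of the ND to the HFD mean was 9.38. The difference was -2.43 ± 0.24 in HFD against ND (adjusted p = 1.12e-05), 1.50 in CLE against HFD (adjusted p = 7.50e-04) and 0.79 in LU against HFD (adjusted p = 0.0322). The last call was lost when any 1 of the 6 HFD and LU libraries was left out, with differences between 0.73 and 0.86.

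Acot2, listed with its neighbours, lies on chromosome 12 at 83987861 to 83993873. It stood at 29.7, 19.0 and 17.7 FPKM in ND, 8.31, 9.56 and 8.83 in HFD, 18.7, 14.7 and 13.1 in CLE and 9.99, 11.3 and 13.8 in LU. The HFD mice were below all others, and CLE mouse 2 reached into the ND range. The difference was -1.19 ± 0.19 in HFD against ND (adjusted p = 2.79e-04) and 0.72 in CLE against HFD (adjusted p = 0.0108), while LU against HFD, at 0.35, was not called (adjusted p = 0.182). The CLE call depended on an assembled variant that makes 38.0% of the sum. Without assembled variants of this kind the difference was 0.37 (adjusted p = 0.152). The transcripts of Acot1 counted under this name did not exceed 2.81 FPKM in any library. Acot6, another peroxisomal member, ranged from 1.59 to 3.91 FPKM with a median of 2.41. Its difference of -0.55 in HFD against ND (adjusted p = 0.00904) was under the fold change of 1.5. The difference passed that threshold without ND mouse 4 (-0.72) or HFD mouse 15 (-0.60). It also passed with a pseudocount of 0.1 (-0.74), with quantile normalization (-0.65) and with the letter R as a covariate (-0.66). Among all alternative settings the smallest difference was -0.14, and the highest adjusted p in limma was 0.867.

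Acot11 was the only type II thioesterase called. The enzyme, also known as Them1 and induced by cold in brown fat, lies on chromosome 4 at 106744555 to 106804998. It stood at 0.41, 0.40 and 0.44 FPKM in ND, 3.09, 2.54 and 2.65 in HFD, 0.55, 0.60 and 0.98 in CLE and 1.43, 0.66 and 0.96 in LU. The HFD mice were above all others and the ND mice below all others. The difference was 1.41 ± 0.14 in HFD against ND (adjusted p = 8.48e-06), -1.14 in CLE against HFD (adjusted p = 9.57e-05) and -0.91 in LU against HFD (adjusted p = 7.25e-04). These adjusted p values are no independent support, since Acot11 passed the filter only through the HFD mice and LU mouse 2. Outside the HFD group its level was near or under the minimum of 1 FPKM used for testing, and Fam151a and Gm12745 overlap it on the opposite strand. Its direction was that of the macrophage markers, and their part in it was not tested.

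The other type II members had no call in any comparison. Acot9, a mitochondrial enzyme, measured 26.9, 31.5 and 28.6 FPKM in ND, 28.0, 29.7 and 29.2 in HFD, 28.7, 30.9 and 31.2 in CLE and 31.1, 30.8 and 30.4 in LU. Acot7, a cytosolic enzyme best known from brain, measured 15.8, 16.2 and 22.1 FPKM in ND, 19.3, 20.7 and 24.3 in HFD, 19.4, 20.2 and 25.7 in CLE and 22.7, 24.5 and 26.1 in LU. For both, HFD and ND overlapped. All LU mice exceeded all ND mice for Acot7, by 0.43 with an adjusted p of 0.0696. Acot13, which is bound to mitochondria and also known as Them2, measured 26.2, 28.5 and 26.1 FPKM in ND and 20.5, 19.4 and 21.6 in HFD, with 22.2, 22.5 and 25.5 in CLE and 23.2, 26.5 and 24.4 in LU. The HFD mice were below all others, and the difference of -0.38 against ND (adjusted p = 0.00359) stayed under the fold change of 1.5. Acot8, a peroxisomal enzyme, ranged from 5.33 to 10.5 FPKM with a median of 9.22.

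Between CLE and LU, 0 of the 18 members were called by limma in either direction, where 0.00817% of all tested genes were called. An unadjusted p under 0.05 was seen for 1 member, beside 5.22% of all tested genes, a share of the same size. That member, Acot4, named after its values were seen, was higher in all 3 CLE mice than in all 3 LU mice, with a difference of 0.71 and a 95% interval of 0.18 to 1.24 (adjusted p = 0.901). The interval for Acsm3 ran from -0.44 to 1.58 and that for Acss3 from -0.03 to 0.70, so these data leave room for differences of over 1.5-fold in both. For Acot9 the interval was -0.19 to 0.15.

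Compared with ND, CLE had 2 members called lower (Acsm3 and Acot4), where 0.842% of all tested genes were called lower, and 0 called higher, where 2.13% were. The adjusted p values were 0.0499 for Acsm3 and 0.049 for Acot4, at differences of -1.75 and -0.93. Both calls stood at the threshold. That of Acot4 was lost when any 1 library other than ND mouse 4 was left out, with differences of -0.56 to -1.08, and that of Acsm3 when any other than CLE mouse 2 or LU mouse 8 was left out, with adjusted p values of 0.0508 to 0.138. LU had 3 members called lower than ND (Acsm3, Acot2 and Acot4), with a background of 1.54%, and 0 called higher, with a background of 5.02%. The differences were -2.33 for Acsm3 (adjusted p = 0.00844), -0.84 for Acot2 (adjusted p = 0.0133) and -1.64 for Acot4 (adjusted p = 0.00215). Acsm5 (-0.82 without ND mouse 3), Acsl5 (0.60 without LU mouse 3, 0.59 without ND mouse 4) and Acot11 (0.63 without LU mouse 3) were called in LU against ND with 1 library left out. Without the libraries with the letter R, ND mouse 2 stands alone for ND, so calls are not given. The differences were then -1.03 for Acsm5 and -3.14 for Acsm3. Without LU mouse 2 the adjusted p of Acot2 was 0.0537, and the exact permutation p of Acot2 was 0.1, the smallest possible.

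The wider acyl-CoA pathway was read from a list of 83 genes in 8 roles, of which 77 were found by name and 67 passed the filter. In HFD against ND, 7 of the 67 were upregulated and 15 downregulated, beside 15.1% and 10.6% of all tested genes. In CLE against HFD, 7 were upregulated and 6 downregulated (6.28% and 10.4% of all tested genes), and in LU against HFD 2 and 2 (4.67% and 7.75%). The counts of these comparisons include Fabp3, called higher in HFD against ND and lower in CLE and in LU against HFD. Fabp3 was tested only through the HFD libraries, so its calls are no support for a difference. Among other acyl-CoA synthetases, 2 of 4 tested were lower in HFD. Slc27a1, the fatty acid transport protein with synthetase activity, fell from 345 ± 120 FPKM in ND to 221 ± 12 in HFD and stood at 337 ± 9.7 in CLE (adjusted p = 0.0245 and 0.0307). Aasdh fell from 12.9 ± 1.4 to 8.16 ± 0.57 FPKM. Among other hydrolases of acyl-CoA, 2 of 7 were lower in HFD, namely Hibch of valine breakdown, at 108 ± 4.0 FPKM in ND and 62.8 ± 4.4 in HFD, and Nudt8, at 11.8 ± 1.4 and 7.22 ± 0.23. In coenzyme A synthesis and transport, 1 of 8 was called, the mitochondrial carrier Slc25a16, at 31.2 ± 2.6 FPKM in ND and 20.3 ± 1.1 in HFD.

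Among the proteins that bind and use fatty acids and acyl-CoA, calls went in both directions. Of all tested genes, 15.1% were called higher and 10.6% lower in HFD against ND. Of 8 binding proteins tested, Fabp4, the main one of fat cells, was lower in HFD against ND (difference -0.85), and Fabp5 (1.04) and Fabp3 (1.12) were higher. Fabp3, the form of heart and muscle, reached 1 FPKM in the 3 HFD libraries alone (2.41, 1.14 and 1.31) and was at most 0.37 elsewhere, so that its difference was a condition of its being tested. The same holds for its lower calls in CLE and in LU against HFD. Among 11 tested genes of esterification, Dgat1 (-0.66), Gpam (-0.60) and Mogat1 (-2.36) were lower, and Dgat2 (0.73), Soat1 (3.17) and Agpat4 (0.71) were higher. Dgat1 and Dgat2 catalyse the last step of triglyceride synthesis, Mogat1 acylates monoacylglycerol and Soat1 esterifies cholesterol. Mogat1 showed the order seen for Acsm3 and Acot4, with 38.5 ± 5.7 FPKM in ND, 6.79 ± 2.0 in HFD, 22.1 ± 8.0 in CLE and 16.1 ± 3.6 in LU. Soat1, which is abundant in macrophages, had 4.52 ± 0.82, 48.5 ± 6.6, 9.98 ± 4.8 and 16.2 ± 2.2 FPKM.

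In the transfer to carnitine, Cpt1a, which commits long-chain acyl-CoA to mitochondrial oxidation, was higher in HFD than in ND (74.4 ± 3.3 against 40.1 ± 5.6 FPKM), and Mlycd, which removes malonyl-CoA, the inhibitor of Cpt1a, was lower (15.02 ± 0.92 against 23.7 ± 1.7 FPKM). Over all tested genes, 10.6% were called lower and 15.1% higher in HFD against ND. Of 9 tested genes listed for making or drawing on acetyl-CoA and malonyl-CoA, 5 were called lower and 0 higher. By mean level the first 4 were Slc25a1 (-0.85), Acaca (-1.74), Acat1 (-0.69) and Acacb (-1.82). Acaca and Acacb, the acetyl-CoA carboxylases, stood at 160 ± 47 and 69.3 ± 32 FPKM in ND and at 46.0 ± 3.9 and 17.8 ± 2.8 in HFD, and both were called higher in CLE than in HFD, at 72.5 ± 18 and 44.5 ± 8.7 FPKM. Of 12 regulators tested, only Srebf2, the factor of cholesterol synthesis, was called, where 15.1% of all tested genes were called higher in HFD. It stood at 24.7 ± 1.1 FPKM in HFD against 14.99 ± 1.9 in ND, 15.0002 ± 1.3 in CLE and 16.6 ± 1.3 in LU.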

How the data were processed

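RNA of whole eWAT from 12 mice was sequenced as paired-end libraries, which the authors prepared with a kit that does not mark strand. Their processing notes name CASAVA 1.8.2, Bowtie2 2.2.3, TopHat2 2.0.12 and Cufflinks 2.2.1. The genome build is not given in the sources used here. FPKM is the unit the authors deposited, in 15 columns over 152210 transcripts. No sample matches 3 of these columns, and 4 further columns hold the authors' own calls between groups. All 7 were left out. Columns were matched to titles by group letters and mouse number. For ND mouse 4 the header reads MD4, and the match rests on its number, its letter R and the header of the authors' comparison with ND.

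Known transcripts and their assembled variants were summed by gene name (Python 3.11.15, pandas 2.3.3, numpy 2.4.6). Of 78786 known transcripts, 77000 are in GENCODE M21, and 87.6% of these had the same ends, so positions are given in GRCm38. Totals over genes were 438074 to 458301 FPKM. Totals over all deposited transcripts were 1290982 to 6409288 FPKM, so the part held by the named genes varied between libraries. Acsf2 is listed under the name Rsad1 and was not counted as a member.

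Groups were compared with limma 3.58.1 (R 4.3.3). A single fit of log2(FPKM + 1) over the 12 libraries had a coefficient per group, no covariate and Benjamini-Hochberg adjustment over 12237 genes in each of 6 comparisons. Single values between groups of 3 were tested by an exact two-sided permutation test, whose smallest p is 0.1. Libraries are single mice. Members with a call in any comparison or a group mean of at least 10 FPKM are given by mouse, and others by range. In the wider list, called genes are given, at most 4 per role by mean level, apart from Soat1 and Agpat4, which were added after their values were seen. The members, lists and tests were chosen with earlier results of these data known. Coding sequences were aligned with Biopython 1.88, and plots were made with matplotlib 3.10.9. Promoters are from RefSeq, GRCm38.p6.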

Additional observations from a re-analysis of the deposited data

How the results depend on the processing

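Alternatives changed 1 choice at a time, and 2 of them, gene names from GENCODE M21 and leaving out the 4 libraries with the letter R, were chosen after seeing the data. Of 1102 refits of 41 single-gene results, 1027 kept their direction and side of the threshold, 56 lost a call, 17 gained one and 2 reversed. The 2 were Acss2 in HFD against ND, at 0.25 without ND mouse 3 and 0.57 without the libraries with the letter R. The first lies within a range of -0.83 to 0.25 on leaving out 1 library. The second rests on ND mouse 2 alone for ND. Scalings moved the median of all genes by at most 0.071. The cause of the changes below was not tested, beyond the number of genes or libraries that a setting removes.

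With the adjusted p alone, members called lower in HFD against ND were 8, those lower in CLE against HFD 4, those higher in LU against HFD 4 and those higher in LU against ND 2. With a mean of at least 5 FPKM, which removes Acot11, those lower were 0 in CLE against HFD and 1 in LU against HFD. Members higher in LU against HFD were 1 with no filter, with the transcript with the highest mean, and without the letter R libraries, and that transcript left 1 lower in LU against HFD. Members lower in CLE against ND were 0 with a pseudocount of 0.1, no filter, equal totals, only the 2 groups compared or array weights. They were also 0 without class code j (assembled variants) or with GENCODE names. With median ratios, quantile normalization, the letter R as a covariate, or the transcript with the highest mean, 1 was lower. Leaving out the letter R libraries leaves ND mouse 2 alone, so no count is given for comparisons with ND. A pseudocount of 0.1 gave 1 member higher in LU against ND. Leaving out 1 library at a time gave 3 to 3 higher and 5 to 7 lower in HFD against ND, 4 to 4 higher and 1 to 1 lower in CLE against HFD, 1 to 2 higher and 1 to 2 lower in LU against HFD, 0 to 1 lower in CLE against ND, and 0 to 2 higher and 2 to 4 lower in LU against ND.

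With the transcript with the highest mean, summed FPKM in HFD was 2.45 for Acsm, 66.5 for Acss, 7.43 for type I Acot and 64.8 for type II Acot, and in ND 99.0 for Acss, 23.1 for type I Acot and 69.2 for type II Acot. Without class code j, HFD sums were 2.86 for Acsm, 88.8 for Acss and 8.84 for type I Acot. The ratio of CLE to HFD was 5.07 for Acsm without class code j and 0.91 for Acss with the highest transcript, and the ratio of LU to HFD 3.04 for Acsm without class code j.

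Same-numbered mice of different groups did not deviate together (r from -0.11 to 0.19 over 5 pairs), so the numbers were not taken as pairs. With the mouse number as a replicate block (correlation 0.089), members called were 3 higher and 5 lower in HFD against ND, 4 and 1 in CLE against HFD, 2 and 2 in LU against HFD, 0 and 2 in CLE against ND and 0 and 4 in LU against ND, the added one being Acsm5 at -0.59. FPKM carry no depth, which limits what can be said of members near 1 FPKM.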
